A study of Rattus norvegicus with 6 samples.

Results

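Fatty acid and triglyceride synthesis in the liver was followed through 10 genes: Fasn, Acaca, Acly, Scd, Elovl6, Elovl5, Srebf1, Mlxipl, Gpam and Dgat2. They were listed by name for their role, with earlier results of these data already known. Every array probe whose accession carries 1 of these rat symbols was taken. Of the 10 genes, 9 had such a probe, out of 15284 named genes on the array, and these 9 had 17 probes, of which 16 were bright enough to be tested. Srebf1 had no probe matched by accession and was not analysed here.

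The samples were livers of 6 male Sprague-Dawley rats, bought at 5 weeks of age and kept on a basal diet. The control group (n = 3) received corn oil, and the treated group (n = 3) received 1000 mg/kg/day of 2,2-bis(bromomethyl)-1,3-propanediol (BBMP), which is used as a brominated flame retardant. The labels give the time as 28 days in one place and as 9 weeks in another. RNA of each rat was hybridised to 1 single-colour Agilent array. Values are log2 spot signals minus the log2 of the 75th percentile of that array, so 0 is the brightness of the 75th percentile probe and 1 unit is a 2-fold difference. A level cannot be compared between probes, since probes differ in how strongly they bind.

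Lipogenesis turns surplus carbohydrate carbon into fat. Acly splits cytosolic citrate into acetyl-CoA, Acaca carboxylates acetyl-CoA to malonyl-CoA, and Fasn condenses these units into palmitate. Elovl6 and Elovl5 lengthen fatty acids, Scd introduces a double bond, Gpam attaches the initial acyl chain to glycerol-3-phosphate, and Dgat2 adds the last one to make triglyceride. In liver the genes are driven mainly by insulin through SREBP-1c, the product of Srebf1, and by glucose through ChREBP, the product of Mlxipl, and they are known to follow feeding and fasting.

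The promoters of Elovl5 (1 of the genes whose groups did not overlap), of Scd (the gene with the widest spread between animals), of Acly (the start of the pathway) and of Mlxipl (the regulator with a probe matched by accession) are shown because the values of these genes differ most in kind. The sequences are from RefSeq on the build GRCr8, with 250 bases before and 50 after the transcription start, and 6 of the 10 genes had an entry. Capitals mark matches, searched on both strands, to the sterol response element (letters TCACNCCAC), to the E-box (letters CACGTG), to the box named CCAAT after its letters, or to the GC box (letters GGGCGG). A match on the opposite strand shows as the reverse complement. None of these motifs overlaps another in the sequences shown.
Elovl5, chr8:87670914-87671213, plus strand: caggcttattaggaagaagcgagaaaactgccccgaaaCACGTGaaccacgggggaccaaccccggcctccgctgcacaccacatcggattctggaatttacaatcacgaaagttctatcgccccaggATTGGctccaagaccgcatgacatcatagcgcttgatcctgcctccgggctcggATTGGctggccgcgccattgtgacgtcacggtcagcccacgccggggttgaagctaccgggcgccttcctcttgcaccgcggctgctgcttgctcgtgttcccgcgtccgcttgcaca
Scd, chr1:253231682-253231981, minus strand: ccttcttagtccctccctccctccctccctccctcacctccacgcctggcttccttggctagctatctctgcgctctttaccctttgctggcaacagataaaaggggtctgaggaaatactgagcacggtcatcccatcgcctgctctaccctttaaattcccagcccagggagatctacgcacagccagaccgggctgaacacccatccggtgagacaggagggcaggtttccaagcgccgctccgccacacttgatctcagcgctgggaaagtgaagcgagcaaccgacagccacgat
Acly, chr10:85963582-85963881, minus strand: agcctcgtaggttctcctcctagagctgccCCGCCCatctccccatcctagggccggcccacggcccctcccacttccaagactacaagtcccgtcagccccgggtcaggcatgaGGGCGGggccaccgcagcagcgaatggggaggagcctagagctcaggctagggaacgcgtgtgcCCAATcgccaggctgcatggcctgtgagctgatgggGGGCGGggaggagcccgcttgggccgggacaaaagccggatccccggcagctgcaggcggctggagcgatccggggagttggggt
Mlxipl, entry 1, chr12:27213611-27213910, minus strand: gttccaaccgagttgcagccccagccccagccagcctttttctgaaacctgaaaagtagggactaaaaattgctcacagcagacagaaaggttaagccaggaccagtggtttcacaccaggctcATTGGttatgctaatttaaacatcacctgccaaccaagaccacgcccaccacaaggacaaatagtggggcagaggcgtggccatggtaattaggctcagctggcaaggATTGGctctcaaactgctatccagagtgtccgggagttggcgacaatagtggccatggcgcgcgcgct

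The Elovl5 promoter held 1 E-box, which begins at -212 from the start, and 2 CCAAT boxes on the opposite strand, at -122 and -68. The Acly promoter held 1 CCAAT box at -71 and 3 GC boxes at -220, -135 and -35. The Mlxipl promoter held 2 CCAAT boxes on the opposite strand, at -126 and -18, and the Scd promoter held none of the motifs in this window. For scale, the sterol response element letters stood in 1.12% of 33469 rat promoters of the same length, the E-box in 6.42%, the CCAAT box in 37.5% and the GC box in 33.1%. These matches describe the letters and were not tested against the array values.

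Of 61573 probes, 60.1% to 64.4% per array were well above background. With 3 arrays a group, precision is limited by their number. The main component of variation over all features held 32.9% of the variance, and on it corn oil 2 scored -50.84, the other controls -14.82 and -9.60, and the BBMP livers 19.09 to 28.70. The control arrays shared 1 slide and scan, and the BBMP arrays shared a different one. Treatment and slide therefore cannot be told apart in these values. All 10 hepatocyte markers on the list used were bright enough to be tested, with summed levels of 6119 to 6669 times the 75th percentile in corn oil and 5565 to 6425 in BBMP livers. In mean, 5 were higher and 5 lower. The groups did not overlap for 3 of the 10, against 17.8% of all features. These were Fgb (-0.25), Serpina1 (-0.18) and Cps1 (0.49), named after their values were seen, and 0 of the 10 passed limma's adjusted p.

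No gene of the set passed the test of treatment. Fasn was 1.43-fold lower on average after BBMP and Elovl5 lower by a smaller amount, and these were the 2 genes whose groups did not overlap. Acly, Mlxipl and Dgat2 had lower means too, with ranges that overlapped by 0.011 or less, whereas Acaca, Elovl6 and Gpam were near 0 in difference. Scd had the highest mean difference, 0.64, and the animals of each group differed far more than that among themselves.

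Of the 9 genes, 6 had a lower mean after BBMP and 3 a higher mean, so 66.7% were lower where 52.5% of all 28112 tested features were. The groups did not overlap for 2 genes (22.2%), both lower, where 17.8% of all features had groups that did not overlap and 9.6% had them apart with BBMP lower. An unadjusted p under 0.05 was reached by the same 2 genes (22.2%), against 10.8% of all features. After Benjamini-Hochberg adjustment over all features, 0 of the 9 genes passed limma's threshold of 0.05, against 0.00711% (2 features) of all, and the lowest adjusted p in the set was 0.401. The median difference of the 9 genes was -0.16 against -0.01 over all features. The count of genes whose groups did not overlap was 5 without corn oil 3 and also without BBMP 2, in both cases by adding Acly, Dgat2 and Mlxipl, and it was 5 with quantile normalisation and 1 with median scaling. The share over all features was 18.1% with quantile normalisation and 17.6% with median scaling. It was 30.9% without corn oil 3 and 28.7% without BBMP 2, where 2 arrays face 3.

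**Figure D1:**
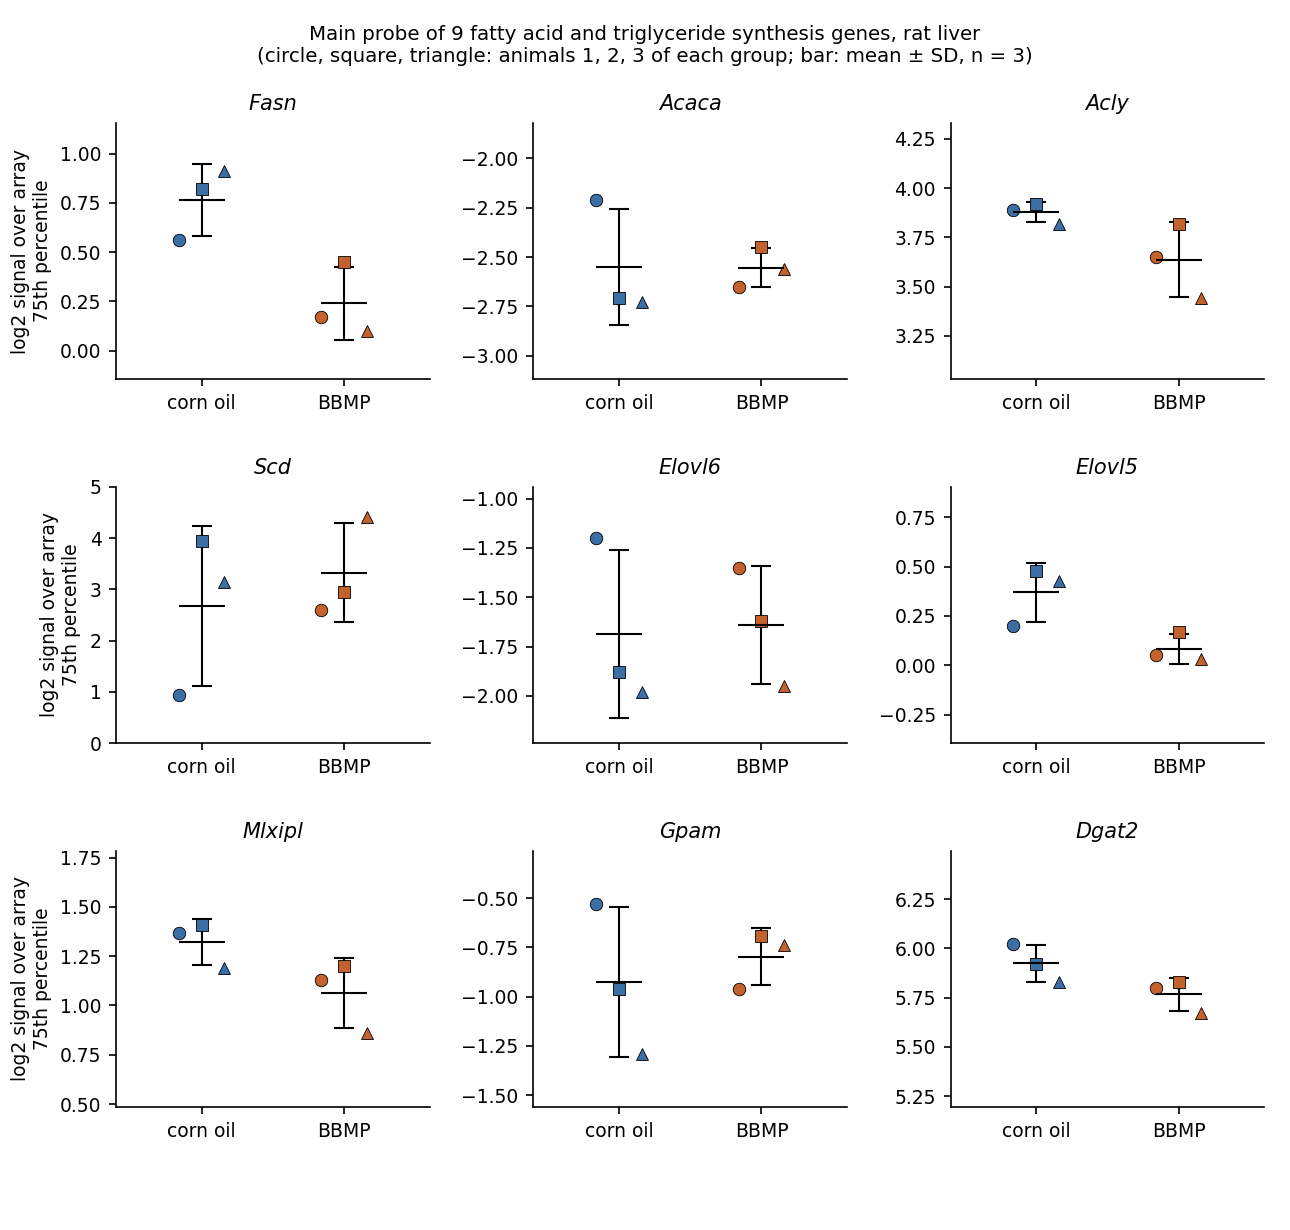
Log2 signal over the array's 75th percentile for the main probe of each of the 9 genes, by group. Circles, squares and triangles are animals 1, 2 and 3 of each group, the long line is the mean and the bars are the SD (n = 3). Each panel has its own range of levels, of the same width in log2 units for every gene but Scd, where it is wider. All 3 BBMP livers lie below all 3 corn oil livers for Fasn and Elovl5, and the Scd values span 3.48 log2 units.

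Acly, which makes cytosolic acetyl-CoA, had a bright probe (A_64_P085112). It read 3.89, 3.92 and 3.82 in corn oil livers 1 to 3 and 3.65, 3.82 and 3.44 in BBMP livers 1 to 3. The groups met where the highest BBMP liver equalled the lowest corn oil liver to within 0.002. The difference was -0.24 ± 0.12 (SE; 95% interval -0.53 to 0.05; limma adjusted p = 0.522). A second Acly probe, A_44_P1004037, gave a difference of -0.02 ± 0.13, from 3.49, 3.61 and 3.53 in corn oil livers and 3.54, 3.71 and 3.30 in BBMP livers. In both probes BBMP 3 was the lowest of the 6 livers, and only in A_64_P085112 was BBMP 1 below all the controls.

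Acaca, the rate-limiting acetyl-CoA carboxylase, gave different pictures from its 2 probes. The brighter probe, A_42_P489761, read -2.21, -2.71 and -2.73 in corn oil livers and -2.65, -2.45 and -2.56 in BBMP livers. The BBMP values all lay inside the corn oil range, and the difference was -0.003 ± 0.16 (95% interval -0.40 to 0.39; limma adjusted p = 0.995). The dimmer probe, A_64_P231828, read -2.69, -2.67 and -2.49 in corn oil livers and -2.92, -2.81 and -2.85 in BBMP livers. On that probe every BBMP liver was below every corn oil liver, with a difference of -0.24 ± 0.10 (95% interval -0.49 to -0.002; limma adjusted p = 0.477). Corn oil 1 decided the brighter probe's mean: without that liver its difference was 0.17 and the groups no longer overlapped, with BBMP higher. No direction can therefore be given for Acaca.

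Fasn, the fatty acid synthase that makes palmitate, had groups that stood apart on both of its probes. The brighter probe, A_44_P235978, read 0.56, 0.82 and 0.91 in corn oil livers, a mean of 0.76 ± 0.18 (SD, n = 3). It read 0.17, 0.45 and 0.10 in BBMP livers, a mean of 0.24 ± 0.18 (SD, n = 3). The highest BBMP liver lay 0.112 below the lowest corn oil liver. The difference was -0.52 ± 0.14 (SE; 95% interval -0.86 to -0.17), with an unadjusted limma p of 0.00985 and an adjusted p of 0.401. The other probe, A_44_P235985, read 0.17, 0.25 and 0.32 in corn oil livers and -0.57, -0.02 and -0.32 in BBMP livers. Its difference was -0.55 ± 0.16 (95% interval -0.93 to -0.18; limma adjusted p = 0.423), so both probes gave a value of about the same size. The 2 probes read the same RNA samples and are not independent measurements. Leaving out any 1 array kept the difference of the brighter probe between -0.62 and -0.45. It was -0.49 without corn oil 2, the control farthest from the rest on the main component of variation. With normexp background correction the difference was smaller, -0.38.

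**Figure D2:**
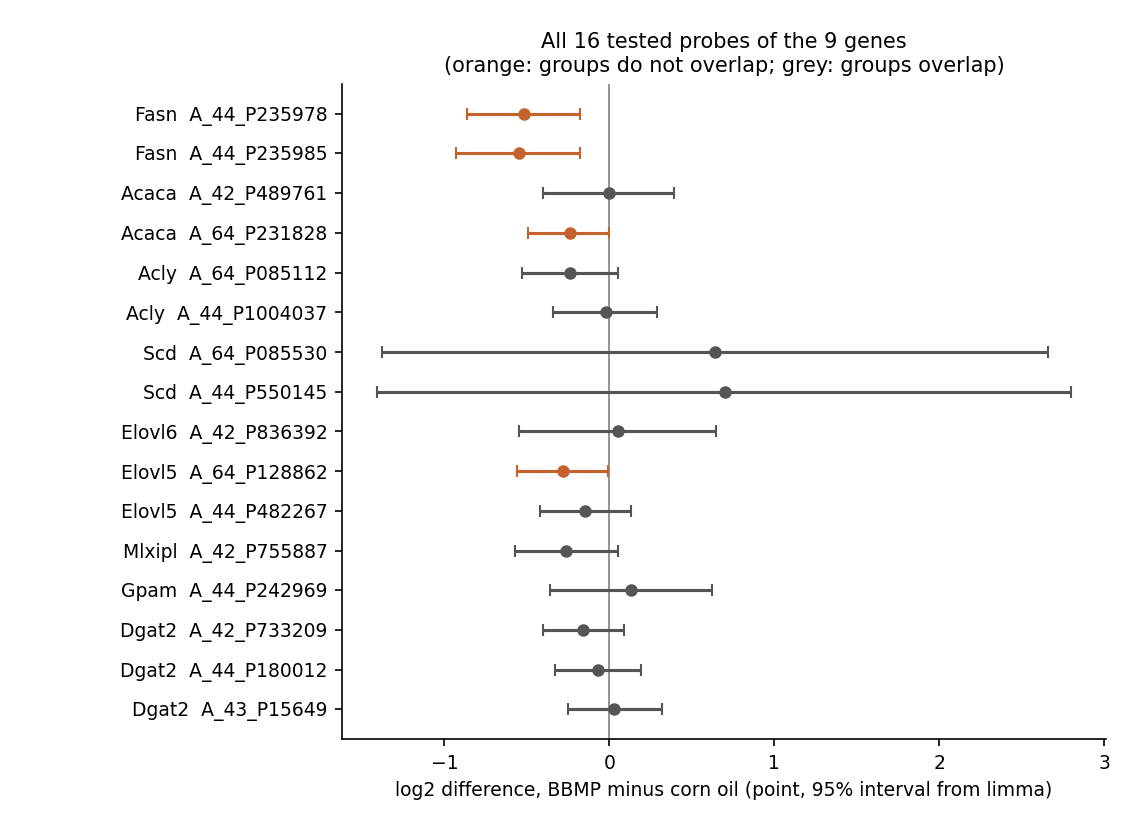
Log2 difference, BBMP minus corn oil, for each of the 16 tested probes of the 9 genes (n = 3 per group), with the 95% interval from limma as the bar. Orange marks the 4 probes whose groups did not overlap, the pair for Fasn and 1 each for Acaca and Elovl5. For scale, 17.8% of all 28112 tested features, each read from 1 probe, had groups that did not overlap. The intervals of both Scd probes span more than 4 log2 units.

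Elovl5, which elongates polyunsaturated fatty acids and mid-length monounsaturated ones, was the other gene whose groups did not overlap. Its main probe, A_64_P128862, read 0.20, 0.48 and 0.43 in corn oil livers and 0.05, 0.17 and 0.03 in BBMP livers. The gap between the groups was 0.021, much smaller than the SD within either group (0.15 and 0.08). The difference was -0.28 ± 0.11 (SE; 95% interval -0.56 to -0.01; limma adjusted p = 0.457). The dimmer probe, A_44_P482267, read -1.73, -1.56 and -1.41 in corn oil livers and -1.78, -1.66 and -1.70 in BBMP livers. There the groups overlapped, because corn oil 1 lay below BBMP 2 and BBMP 3, and the difference was -0.15 ± 0.11 (limma adjusted p = 0.674). The Elovl5 groups overlapped with the mean of both probes, with median scaling and with normexp background correction, where the difference was -0.14.

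Elovl6, which elongates palmitate to stearate, showed no separation of the groups. Its tested probe, A_42_P836392, read -1.20, -1.88 and -1.98 in corn oil livers and -1.35, -1.62 and -1.95 in BBMP livers. The difference was 0.05 ± 0.25 (95% interval -0.56 to 0.66; limma adjusted p = 0.955), and its direction turned without corn oil 2, without corn oil 3, without BBMP 1 and with normexp background correction (-0.08). A second probe, A_44_P428691, was well above background in only 1 corn oil and 2 BBMP livers and was not tested. Corn oil 1 was the highest of the 6 livers on both Elovl6 probes.

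Scd, the delta-9 desaturase that makes oleate and palmitoleate, had the widest spread of the set. Its main probe, A_64_P085530, read 0.94, 3.95 and 3.14 in corn oil livers, a mean of 2.68 ± 1.56 (SD, n = 3). It read 2.60, 2.95 and 4.42 in BBMP livers, a mean of 3.32 ± 0.97 (SD, n = 3). The lowest liver was corn oil 1 and the highest was BBMP 3, a range of 11.1-fold over the 6 animals. The mean difference was 0.64 ± 0.84 (95% interval -1.39 to 2.67; limma adjusted p = 0.802), so a change of 2-fold in either direction was not detectable with these animals. Without corn oil 1 the difference was -0.23 ± 0.60, and without corn oil 2 it was 1.28. The second probe, A_44_P550145, read -0.82, 2.30 and 1.44 in corn oil livers and 0.89, 1.29 and 2.84 in BBMP livers. It placed the 6 livers in the same order as the first, with a range of 12.7-fold and a difference of 0.70 ± 0.87.

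The glycerolipid enzymes of the set were close between groups. Gpam, the mitochondrial glycerol-3-phosphate acyltransferase, read -0.53, -0.96 and -1.29 in corn oil livers and -0.96, -0.69 and -0.74 in BBMP livers on its 1 probe, A_44_P242969. The corn oil livers enclosed all BBMP livers, and the difference was 0.13 ± 0.20 (95% interval -0.36 to 0.62; limma adjusted p = 0.838). Without corn oil 3 the direction of Gpam turned, to -0.05.

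Dgat2, which acylates diacylglycerol, read 6.02, 5.92 and 5.83 in corn oil livers and 5.80, 5.83 and 5.67 in BBMP livers on A_42_P733209. The groups touched at 5.83, and the difference was -0.16 ± 0.10 (95% interval -0.40 to 0.09; limma adjusted p = 0.598). The other Dgat2 probes gave -0.07 ± 0.11 (A_44_P180012) and 0.03 ± 0.12 (A_43_P15649), so the 3 probes did not share a direction.

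Mlxipl, which encodes the glucose-responsive factor ChREBP, read 1.37, 1.41 and 1.19 in corn oil livers and 1.13, 1.20 and 0.86 in BBMP livers on its 1 probe, A_42_P755887. Only corn oil 3 and BBMP 2 crossed, by 0.011, and BBMP 3 was the lowest liver. The difference was -0.26 ± 0.13 (95% interval -0.57 to 0.05; limma adjusted p = 0.514). With normexp background correction it was -0.34 and the groups no longer overlapped.

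The animals did not rank alike across the genes. Corn oil 1 was the highest liver for Acaca, Elovl6, Gpam and Dgat2 and the lowest for Scd. BBMP 3 was the lowest liver for 5 genes (Fasn, Acly, Elovl5, Mlxipl and Dgat2) and the highest for Scd. BBMP 2 lay above its group's mean for 8 of the 9 genes, all but Scd, and BBMP 3 lay above it for 2. Corn oil 2, the control farthest from the rest on the main component of variation, was the highest liver for 3 genes (Acly, Elovl5 and Mlxipl) and the lowest for none.

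The SD within groups (pooled over both groups) measured how alike the animals of a group were. For 8 of the 9 genes it lay between 0.09, for Dgat2, and 0.37, for Elovl6, where the median of all features was 0.18. For Scd it was 1.30, and only 122 of 28098 features (0.4%) had a larger one. Among the 116 tested genes of the set and of the lipid lists described further on, Scd ranked second after Lpin1, a phosphatidate phosphatase and coactivator (1.34). Insig1, the sterol-regulated anchor of SCAP and SREBP, had 1.12, and Fgf21, a fasting-induced hormone, had 1.01. Lpin1, Insig1 and Fgf21 were picked out after their values were seen.

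**Figure D3:**
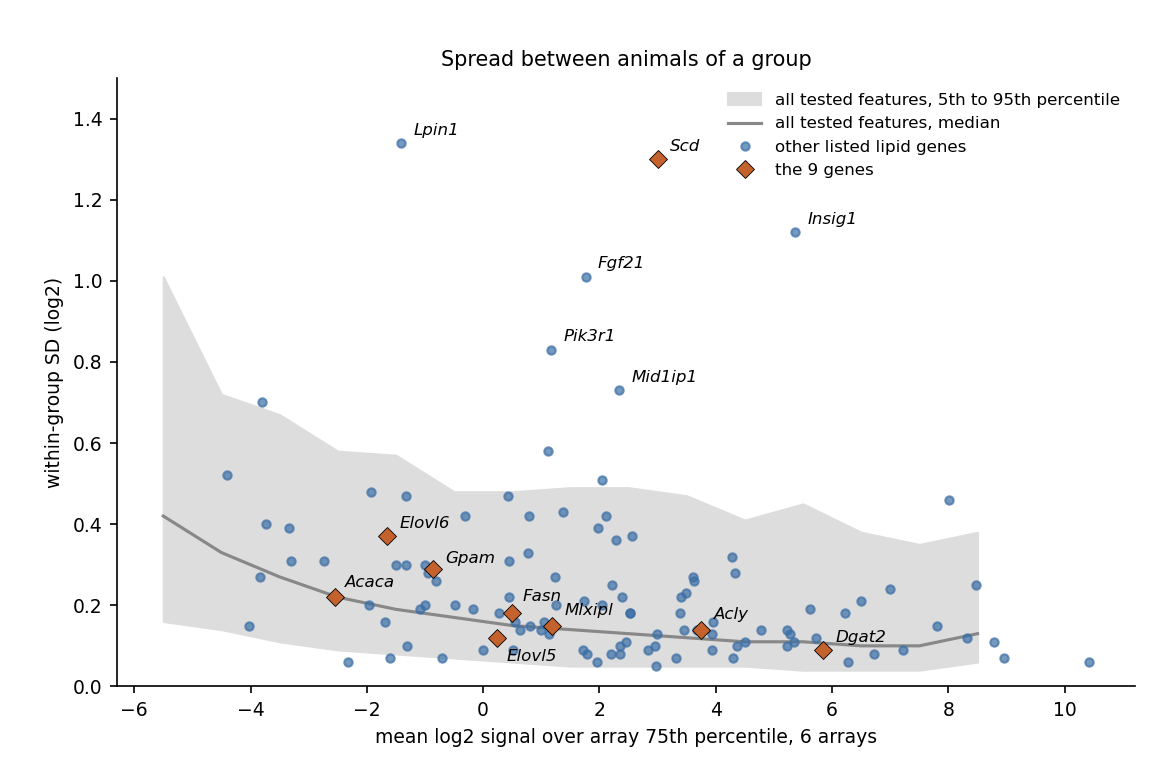
SD within groups (log2) against the mean log2 signal over the 6 arrays, for the 9 genes (orange diamonds) and the other tested genes of the lipid lists (blue points), over the median (line) and the 5th to 95th percentile (band) of all tested features at that brightness. Scd lies at 1.30, far above the band, and the other 8 genes lie at 0.37 or lower, inside it. Labelled blue genes were chosen for their spread.

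BBMP 3 and corn oil 1 recurred as extreme livers among these wide genes, and the direction of BBMP 3 differed by gene. Insig1 read 5.80, 4.95 and 5.67 in corn oil livers and 6.05, 6.24 and 3.53 in BBMP livers, with its lowest value in BBMP 3, where Scd was highest. All 4 Insig1 probes placed BBMP 3 lowest. Lpin1 read -2.13, -2.56 and -0.14 in corn oil livers and -0.62, -0.20 and -2.79 in BBMP livers, also lowest in BBMP 3. Fgf21 read 0.60, 3.33 and 1.96 in corn oil livers and 1.78, 1.07 and 1.81 in BBMP livers, and shared with Scd the lowest liver, corn oil 1. The highest liver for Fgf21 was corn oil 2. None of these genes passed limma's adjusted p, with values of 0.937 for Insig1, 0.887 for Lpin1 and 0.845 for Fgf21. The labels used here do not give the hour of sampling or the feeding state of each rat.

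**Figure D4:**
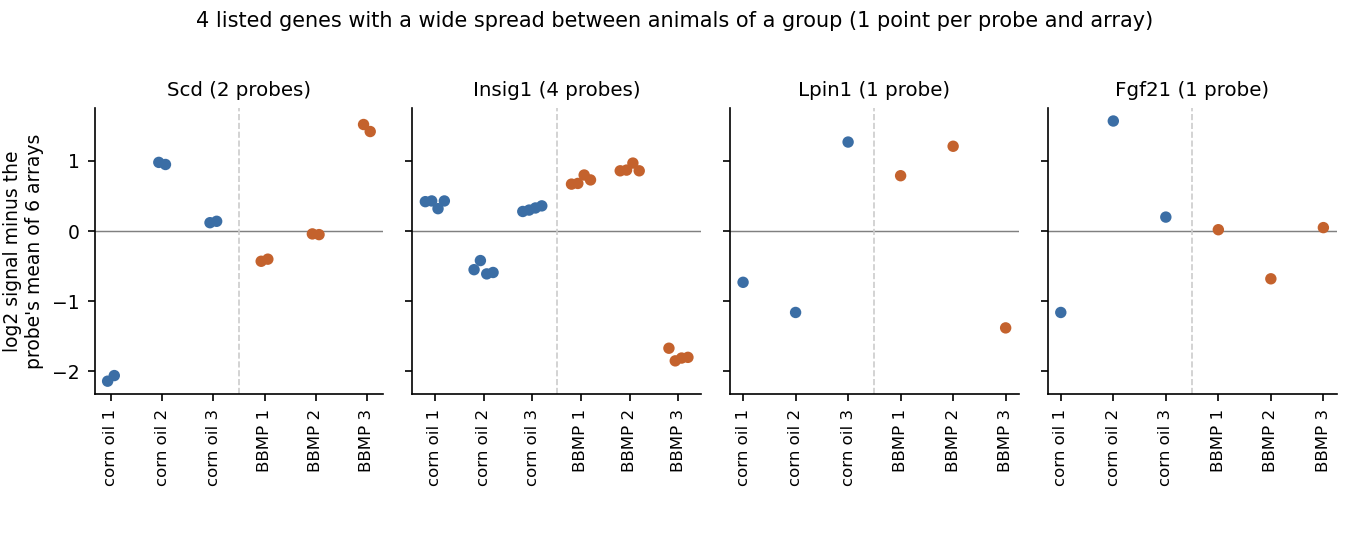
Log2 signal minus the probe's mean over the 6 arrays, per liver, for 4 lipid genes with a large SD within groups, with 1 point per probe (8 probes in all; blue corn oil, orange BBMP). Probes of the same gene lie close together in each liver, and the liver that stands out differs by gene. Corn oil 1 is lowest for Scd and Fgf21, and BBMP 3 is highest for Scd and lowest for Insig1 and Lpin1. For Fgf21 the liver farthest from the mean is corn oil 2 (1.57, against -1.16 in corn oil 1).

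The rest of the lipid machinery was taken from 8 lists with 122 genes, and those bright enough were tested. None of these passed limma's adjusted p, and 8 of them (7.48%) had an unadjusted p under 0.05, below the 10.8% of all features. Counts over lists take the brightest tested probe of each gene. The mean was higher after BBMP for 40 and lower for 67, with a median difference of -0.07. The groups did not overlap for 17 genes (15.9%, against 17.8% of all features), 14 of them lower and 3 higher. The genes named below are up to 3 of each list with the smallest unadjusted p, so their values are the extremes of their lists.

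Enzymes that supply citrate, acetyl-CoA and NADPH were lower in mean for 8 of 9 genes, with a median of -0.13 and a range of -0.27 to 0.004. Of all features, 52.5% were lower. The transketolase Tkt differed by -0.22 ± 0.10, the mitochondrial citrate carrier Slc25a1 by -0.19 ± 0.10 and the malic enzyme Me1 by -0.27 ± 0.19 (SE; limma adjusted p 0.481, 0.523 and 0.635). The groups did not overlap for Tkt and Slc25a1, 22.2% of the list against 17.8% of all features. The 2 other Me1 probes gave -0.06 and -0.14.

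The other carboxylation, elongation and desaturation enzymes and their modifiers were higher for 6 and lower for 8 of 14 genes. The groups did not overlap for 21.4% of the list, against 17.8% of all features. Tecr, the reductase that completes each elongation cycle, read 6.50, 6.47 and 6.43 in corn oil livers and 6.12, 6.18 and 6.01 in BBMP livers. Every BBMP liver was lower, and the difference was -0.36 ± 0.09 (limma adjusted p = 0.390). Its 2 other probes gave -0.28 and -0.13, also without overlap. Fads2, the delta-6 desaturase that acts beside Elovl5 on polyunsaturated fatty acids, was 2.51, 2.04 and 2.72 in corn oil livers and 1.98, 1.99 and 2.00 in BBMP livers, a difference of -0.43 ± 0.18 (limma adjusted p = 0.463). Its other probe gave -0.37 with overlap. Mlycd, which breaks malonyl-CoA down again, differed by 0.26 ± 0.12 (limma adjusted p = 0.489).

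Paralogs of the 10 genes were counted as well. Of 14 listed, 8 were tested, 3 with a higher and 5 with a lower mean, and the groups did not overlap for Elovl1 and Srebf2 (2 of 8, against 17.8% of all features). The 3 other Elovl1 probes overlapped, with differences of 0.005, 0.08 and 0.10 against -0.16 on the brightest. None passed limma's adjusted p, and 1 had an unadjusted p under 0.05. Scd2, set here against Scd, read -0.60, -0.49 and -0.26 in corn oil livers and -0.48, -0.78 and -0.33 in BBMP livers. The SD within groups was 0.20 on this probe, its brightest, against 1.30 for Scd. Another Scd2 probe, A_44_P194152, read -2.08, -0.56 and -1.43 in corn oil livers and -1.31, -1.47 and -0.19 in BBMP livers, lowest in corn oil 1 and highest in BBMP 3 as Scd was. The remaining Scd2 probe, A_44_P198396, read -3.91, -3.95 and -3.69 in corn oil livers and -3.78, -3.62 and -4.12 in BBMP livers. It was lowest in BBMP 3, and the brightest probe was lowest in BBMP 2, so the Scd2 probes did not share an order of livers.

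The other glycerolipid acylation enzymes were split, 9 higher and 8 lower of 17, and 11.8% had groups that did not overlap, against 17.8% of all features. Acsl3, an acyl-CoA synthetase of lipid droplets and the endoplasmic reticulum, had the lowest difference of the lipid lists. It read -0.74, -0.43 and -0.50 in corn oil livers and -1.65, -1.43 and -0.95 in BBMP livers, without overlap, a difference of -0.79 ± 0.20 (limma adjusted p = 0.388). Agpat5, a lysophosphatidate acyltransferase, differed by 0.29 ± 0.09 (limma adjusted p = 0.407) on its brighter probe, without overlap, and by -0.18 on the other. The acyltransferase Mogat2 differed by 0.21 ± 0.13 (limma adjusted p = 0.602).

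SREBP processing genes and lipogenic transcription factors were higher for 6 and lower for 12 of 18, and the groups did not overlap for 1 and 4 of these (27.8%, against 17.8% of all features). Srebf2, the factor of sterol synthesis and the relative of Srebf1, read 2.45, 2.37 and 2.31 in corn oil livers and 1.91, 2.10 and 1.98 in BBMP livers. Its difference was -0.38 ± 0.10 (limma adjusted p = 0.393) and its second tested probe gave -0.44. Mlx, the partner of ChREBP on DNA, differed by 0.22 ± 0.10 without overlap (limma adjusted p = 0.490) and by 0.12 with overlap on its other probe, where Mlxipl itself differed by -0.26. Ppargc1b, a coactivator of SREBP-1c, read -0.99, -1.09 and -0.04 in corn oil livers and 0.13, 0.20 and -0.07 in BBMP livers, a difference of 0.79 ± 0.29 (limma adjusted p = 0.433), with corn oil 3 inside the BBMP range.

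Among targets of ChREBP, the groups overlapped on the brightest probe of each gene named here. The glycolytic enzyme Pklr differed by -0.56 ± 0.29, the triokinase Tkfc by -0.37 ± 0.16 and the glucose-6-phosphatase G6pc1 by -0.28 ± 0.16 (limma adjusted p 0.520, 0.471 and 0.554). The other Pklr probe, A_44_P278701, read 0.99, 1.76 and 0.98 in corn oil livers and 0.45, 0.42 and 0.94 in BBMP livers, without overlap, a difference of -0.64. Mlxipl itself, which encodes ChREBP, differed by -0.26.

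Insulin and AMPK signalling genes were higher for 6 and lower for 12 of 18, with a median of -0.05. Over the whole list, 16.7% of genes had groups that did not overlap, against 17.8% of all features. Both AMPK subunits named by the rule had groups that did not overlap on the brightest probe, with BBMP lower. The other AMPK subunits were added after their values were seen. Prkag1 was higher by 0.10, also without overlap, and the groups overlapped for Prkaa1, Prkaa2 and Prkab2. Prkag2 read -0.75, -0.83 and -0.67 in corn oil livers and -0.92, -1.39 and -1.42 in BBMP livers, a difference of -0.49 ± 0.16, and its other probe gave -0.52 with overlap. Prkab1 differed by -0.55 ± 0.20 and the insulin receptor Insr by -0.30 ± 0.15 (limma adjusted p 0.435 and 0.515, and 0.407 for Prkag2). The 2 other Insr probes gave 0.08 and -0.04, so the 3 did not share a direction.

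Lipid droplet, lipolysis and secretion genes were higher for 10 and lower for 6 of 16, with a median of 0.12, and the groups overlapped on the brightest probe of all 16. The seipin gene Bscl2 differed by -0.25 ± 0.12, the droplet dehydrogenase Hsd17b13 by 0.22 ± 0.12 and the droplet fusion gene Cidea by 0.28 ± 0.17 (limma adjusted p 0.505, 0.548 and 0.575). The other Cidea probe, A_43_P22556, read 0.72, 0.70 and 0.86 in corn oil livers and 1.31, 1.44 and 1.09 in BBMP livers. There the groups did not overlap, and the difference was 0.52 ± 0.12 (limma adjusted p = 0.407). A dimmer probe of Mttp, the lipid transfer protein of lipoprotein assembly, was also without overlap (0.41, against 3.1e-04 on its brightest); it was picked out after its values were seen. Fatty acid uptake and binding genes were lower for 7 of 9, with a median of -0.22, where 52.5% of all features were lower. Of this list, 22.2% had groups that did not overlap, against 17.8% of all features. The acyl-CoA binding protein Dbi differed by -0.27 ± 0.10 on a probe without overlap, the hepatic lipase Lipc by -0.22 ± 0.09 without overlap, and the acyl-CoA synthetase Slc27a5 by -0.57 ± 0.31 with overlap (limma adjusted p 0.444, 0.465 and 0.540).

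**Figure D5:**
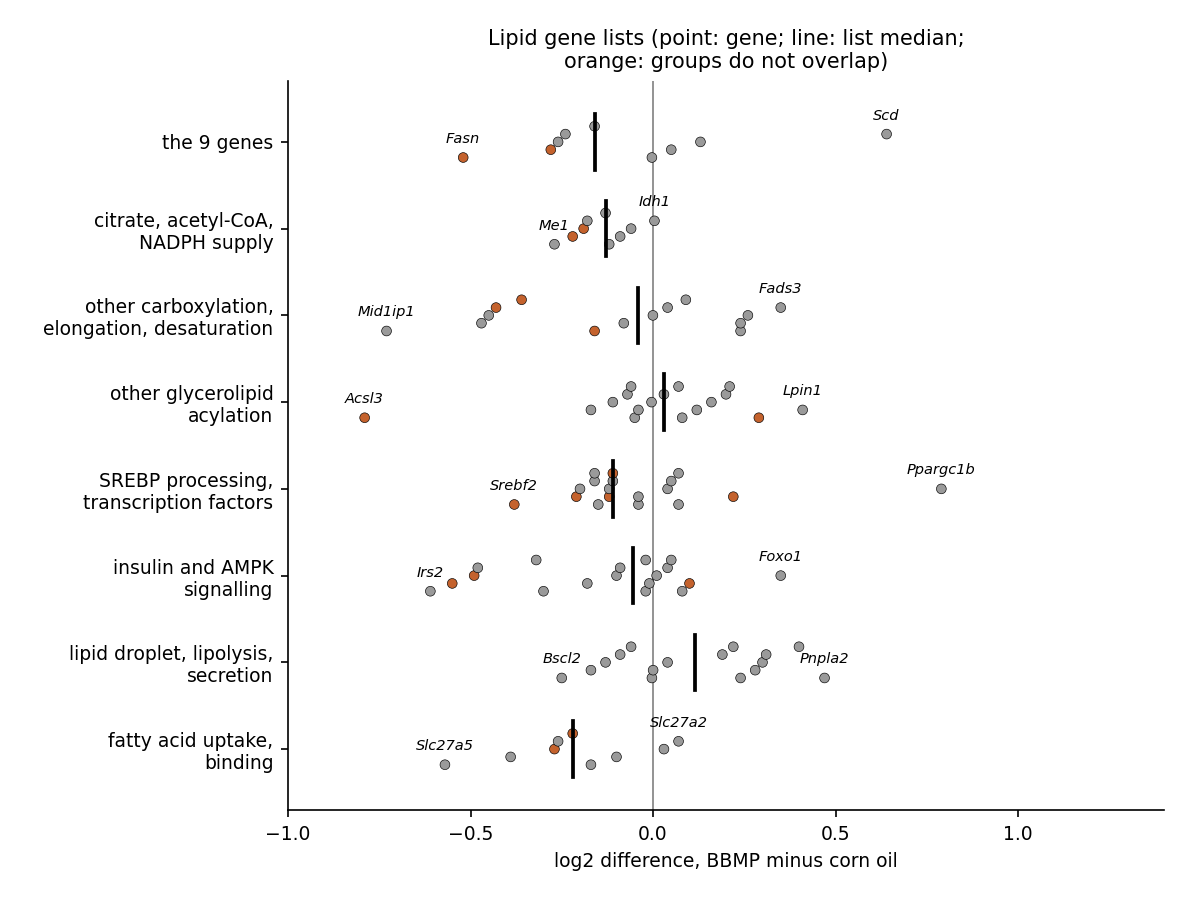
Log2 difference, BBMP minus corn oil, of each tested gene (points) in the set of 9 genes and in 7 lists of related lipid genes, with list medians as vertical lines (n = 3 per group). Orange points are genes whose groups did not overlap; list medians lie between -0.22 and 0.12, and the genes at the ends of each list are labelled for their place.

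In bulk liver RNA, fewer cells of a type and less RNA per cell cannot be told apart. Among markers of other cell types, the summed level of the 8 stellate and fibroblast genes was 41.7 to 46.6 times the 75th percentile in corn oil and 34.5 to 40.4 in BBMP livers, without overlap, with 5 lower and 3 higher in mean. Gene by gene, the groups did not overlap for 3 of the 8, against 17.8% of all features. These were Lrat (-0.49), Pdgfrb (-0.53) and Des (0.18), named after their values were seen, and 0 of the 8 passed limma's adjusted p. The summed level weighs bright probes most, and Col3a1 alone made up 45.9% to 53.1% of it. Without Col3a1 it was 21.2 to 22.5 in corn oil and 18 to 21.2 in BBMP livers. Its part in the lower Fasn and Elovl5 values was not tested. All 10 Kupffer cell and macrophage markers were higher in mean, none without overlap, with summed levels of 103 to 163 in corn oil and 124 to 176 in BBMP livers. Adipocytes make lipid with the same enzymes: of the 8 measured markers, Adipoq and Lep were not well above background on any array, Fabp4 and Retn were on 5, and Cfd, Cidea, Adrb3 and Pck1 on all 6. Hepatocytes express Pck1 strongly, and it made up 77.7% to 88.3% of the summed level, which was 131 to 136 in corn oil and 83.9 to 137 in BBMP livers. Without Pck1 it was 15.8 to 20.5 in corn oil and 18.7 to 20.7 in BBMP livers. Of the 6 exocrine pancreas markers, Cela1, Pnlip and Prss1 were not well above background on any array, Cpa1 was on 1, and Ctrb1 and Amy2a3 on all 6. These last 2 were tested, and they are set out after their values were seen. Ctrb1 differed by 0.24, without overlap, and Amy2a3 by -0.10, with overlap (limma adjusted p 0.441 and 0.879). For scale, 17.8% of all features had groups that did not overlap. The part of these cell types in the values of the 9 genes was not tested.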

How the data were processed

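Liver RNA of 6 rats was measured on 1-colour Agilent arrays (design 035170, annotated on rn4, per the file headers). The deposited scanner files hold linear spot intensity, which Feature Extraction 10.7.1.1 had corrected for background, per the file headers (10.7 in the submitters' processing notes). The authors' value table holds intensity too: each column was the scanner signal divided by a constant near that array's 75th percentile (medians 0.0965 to 0.0998).

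Each array held 62976 spots. After removal of 1319 control spots and 84 spike-in probes, 61573 probes were left. Of these, 27460 probes (44.6%) were named through unversioned accessions in the RefSeq table of GRCr8. The log2 processed signal minus the log2 75th percentile of the array (450.1 to 570.4) was analysed, without outlier spots. A feature was tested if well above background on all 3 arrays of a group, and a gene was represented by its brightest such probe. Groups came from the labels and were compared with limma 3.58.1 (R 4.3.3, lmFit and eBayes, two-sided) over 28112 features. Differences, intervals and p-values of further probes came from a fit with every probe as a row. Groups of 3 against 3 allow no exact permutation p below 0.10, so none is given.

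The members and lists were chosen with earlier results of these data known. All members, and up to 3 genes per list with the smallest p, are named. A gene of the ChREBP target list is not reported here, counts leave it out, and no summary of that list is given. Any other gene is marked in the text as picked once its values were known. Alternatives were normexp (offset 50), quantile normalisation, median scaling, every probe, a filter on all 6 arrays or none, the mean of probes, trended robust moderation, the value table, the replicate block and leaving out each array. Normexp was run on the median spot signal, the column in the files used. The fit was also run on simulated data with 200 changed genes, independent noise and no slide effect. That setting differs from these data, and no result here rests on it. Python 3.11.15, pandas 2.3.3 and matplotlib 3.10.9 made tables and figures.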

Additional observations from a re-analysis of the deposited data

How the results depend on the processing

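No gene of the set and none of the 24 named pathway genes passed limma's adjusted p in any of the 16 alternatives, and the lowest adjusted p of the set was 0.347. Fasn, Acly, Elovl5, Mlxipl, Dgat2 and the 24 pathway genes kept their direction in all 16, and Fasn's groups did not overlap in any. Of all features, 2 passed in the main setting, 0 with normexp, 0 with a filter on all 6 arrays, 1 with no filter, and 0 to 4 when 1 array was left out. Normexp gave 3279 features with an unadjusted p under 0.05 and that filter 2835, against 3035. Without corn oil 3, 0 features passed and 3002 had an unadjusted p under 0.05. The count of genes of the set whose groups did not overlap was 5 with quantile normalisation, 1 with median scaling, 1 with the mean of probes, and 2 to 5 when 1 array was left out, against 2. The share of all features was 18.1%, 17.6% and 17.7% in those settings and 24.3% to 31.5% when 1 array was left out, against 17.8%. With normexp the groups did not overlap for 3 genes of the set (Fasn, Mlxipl and Dgat2) and for 17.6% of all features. The count of higher genes was 1 to 3 when 1 array was left out, against 3. Acaca turned direction with normexp (0.03), quantile normalisation (0.01) and median scaling (0.01), and ran from -0.09 to 0.17 when 1 array was left out. Elovl6 turned with normexp (-0.08) and ran from -0.10 to 0.29, Scd from -0.23 to 1.28 and Gpam from -0.05 to 0.33. The cause was not tested. The second Elovl6 probe was too dim to be tested.

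With the replicate number as a block, 0 features passed limma's adjusted p and 3235 had an unadjusted p under 0.05; no gene of the set changed direction or call, and the block gave -0.52 ± 0.13 for Fasn. Same-numbered arrays correlated at 0.089, 0.016 and 0.072 in their deviations from the group means, and nothing in the labels says that a number marks a shared litter or day.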
